A study of Mus musculus with 10 samples.

Results

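These data describe the distal H3K4me1 regions of mouse cortical neurons that carried H3K27ac after potassium chloride (KCl) and not before it. An H3K4me1 region of the untreated list, on chromosomes 1 to 19, was a member when it overlapped by at least 1 bp a region of the KCl list of H3K27ac, overlapped none of the untreated list of H3K27ac, and lay more than 1 kb from every start and end of a RefSeq gene. The rule found 9424 such regions among 157799 distal H3K4me1 regions (5.97%) and 189576 H3K4me1 regions in all. They are called KCl-only regions here. They were selected on the H3K27ac and H3K4me1 lists themselves, so their H3K27ac values are a description and carry no test. The other distal regions fell into 26180 with H3K27ac in both lists (both-list regions), 13204 with H3K27ac in the untreated list alone (untreated-only regions) and 108991 with H3K27ac in neither (neither-list regions).

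The cells were primary cortical neurons of C57BL/6J mice, kept for 6 days in vitro and then overnight in 3% serum. They were treated with 50 mM KCl for 45 min or left untreated, and both conditions had the serum step. Chromatin immunoprecipitation and sequencing (ChIP-seq) was done for Gtf3c1, Rpc155, H3K4me1 and H3K27ac, which gave 1 peak list per antibody and condition. The labels name no altered genotype and no selection of a cell type. Positions are on GRCm38/mm10. Fold enrichment is the authors' value for a peak, its height over the local background, and where several peaks overlapped a region the highest counts. Intervals given with shares are exact binomial (Clopper-Pearson) and cover counting error only. Each group being a single list, differences between KCl and untreated lists could not be set against replicate spread, and they carry no p-value.

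H3K4me1 is a histone mark of enhancers, both active ones and ones that are primed, meaning marked but not yet in use. H3K27ac is laid down by the acetyltransferases CBP and p300 and accompanies activity of enhancers and promoters. KCl depolarizes the membrane, opens voltage-gated calcium channels and so activates the transcription factor CREB, which recruits CBP. Immediate-early genes such as Fos are transcribed within minutes of this. Gtf3c1 is the largest subunit of TFIIIC, which binds the internal promoters of tRNA genes and also many sites outside them, and Rpc155 is the catalytic subunit of RNA polymerase III.

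The sequences of the distal regions themselves were not used here. Some KCl-only regions lay across a transcription start site inside a longer gene, which the distance rule does not remove because it counts the outer ends of genes. For these, RefSeq promoter windows of 250 bases before to 50 after the start were at hand (assembly GRCm38.p6). On the chromosomes with windows, 158 of 9078 KCl-only regions (1.74%, 95% interval 1.48 to 2.03) overlapped one, against 2.63% of both-list, 0.243% of untreated-only and 0.354% of neither-list regions. The windows belonged to 157 genes. The 250 bases before the start are shown for the 4 named genes with the highest Gtf3c1 fold enrichment among windows that overlapped Gtf3c1 in the KCl list at a member without Gtf3c1 in the untreated list. They run 5′ to 3′, and capitals mark each CpG dinucleotide.
Tbc1d1 (chr5:64160010-64160259, + strand): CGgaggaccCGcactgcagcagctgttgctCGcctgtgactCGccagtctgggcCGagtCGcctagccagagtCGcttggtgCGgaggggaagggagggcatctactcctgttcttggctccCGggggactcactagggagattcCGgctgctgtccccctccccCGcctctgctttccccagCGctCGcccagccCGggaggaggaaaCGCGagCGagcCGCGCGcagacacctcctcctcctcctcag
Homer1 (chr13:93307784-93308033, + strand): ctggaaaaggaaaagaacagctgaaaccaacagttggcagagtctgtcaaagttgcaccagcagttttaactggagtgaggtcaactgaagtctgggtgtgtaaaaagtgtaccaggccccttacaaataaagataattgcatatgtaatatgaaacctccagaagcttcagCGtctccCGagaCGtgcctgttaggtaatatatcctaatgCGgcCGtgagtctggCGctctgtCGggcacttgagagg
Aff1 (chr5:103754323-103754572, + strand): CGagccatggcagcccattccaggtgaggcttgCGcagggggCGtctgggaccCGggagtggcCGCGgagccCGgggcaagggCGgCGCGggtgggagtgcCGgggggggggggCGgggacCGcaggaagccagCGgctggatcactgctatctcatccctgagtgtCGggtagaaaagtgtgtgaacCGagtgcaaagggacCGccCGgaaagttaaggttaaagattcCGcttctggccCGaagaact
Ak4 (chr4:101419039-101419288, + strand): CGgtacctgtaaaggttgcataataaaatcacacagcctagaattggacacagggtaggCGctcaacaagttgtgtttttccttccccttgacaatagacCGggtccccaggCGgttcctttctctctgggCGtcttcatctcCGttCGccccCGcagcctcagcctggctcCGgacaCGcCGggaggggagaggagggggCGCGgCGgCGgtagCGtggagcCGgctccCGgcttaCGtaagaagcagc
These stretches show how the CpG content of such starts differed from gene to gene. The Tbc1d1 stretch held 20 CpG, Aff1 20, Ak4 19 and Homer1 7. Over whole windows the median was 13 CpG at KCl-only regions, against 13 at both-list regions, 6 at neither-list regions and 7 in all windows. Of the 187 windows at KCl-only regions, 60.4% had at least 10 CpG, against 43.96% of all 31396 windows. The cyclic AMP response element TGACGTCA, searched on both strands, was in 1.07% of the windows at KCl-only regions (0.1298 to 3.81) and in 1.83% of all windows. The AP-1 motif TGANTCA was in 6.42% (3.36 to 10.9) and in 7.84% of all windows. No run of letters can match both motifs in full, and these matches are a description of letters, not of binding.

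At the member over the Homer1 start, the KCl list gave a fold enrichment of 16.1 for H3K27ac and 12.9 for Gtf3c1. Neither was in the untreated lists at any of the 4 members, which the member rule (H3K27ac) and the choice of windows (Gtf3c1) fixed. At Homer1 the H3K27ac region was 7145 bp wide and also reached an untreated H3K27ac region, and the Gtf3c1 region was 7362 bp wide. Homer1 encodes a scaffold protein of the postsynaptic density. At Tbc1d1, which encodes a Rab GTPase-activating protein, KCl gave 7.29 for H3K27ac and 17.4 for Gtf3c1. At Aff1, a gene of the super elongation complex, the KCl values were 8.04 and 8.22. At Ak4, which encodes a mitochondrial adenylate kinase, they were 7.43 and 4.84. H3K4me1 at these 4 members was 8.30 with KCl and 4.98 untreated (Homer1), 7.87 and 5.69 (Tbc1d1), 5.71 and 4.98 (Aff1), and 2.83 and 3.73 (Ak4). In all 4 the H3K27ac and Gtf3c1 summits lay beside the H3K4me1 region, not in it.

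H3K4me1 before KCl was fixed by the rule. With KCl it was listed at 8684 KCl-only regions (92.1%, 91.6 to 92.7), where 79.9% of all distal regions were. Both-list regions stood at 97.4%, untreated-only regions at 91.1% and neither-list regions at 73.3%. In the untreated list of H3K4me1 the KCl-only regions had a median width of 875 bp and a median fold enrichment of 4.98. Both-list regions had 1616 bp and 7.33, untreated-only regions 834 bp and 4.87, and neither-list regions 431 bp and 3.55. In H3K4me1 before KCl the KCl-only regions were thus between neither-list and both-list regions, and close to untreated-only regions. Among the 8684 regions in both H3K4me1 lists, the median fold enrichment was 6.01 with KCl and 5.15 untreated, and the median width was 1145 bp with KCl and 943 bp untreated. The median log2 difference, KCl over untreated, was 0.15, against 0.09 over all distal regions and 0.05 at untreated-only regions.

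The label of the regions as acetylated after KCl rested on weak calls in most cases. Their H3K27ac fold enrichment in the KCl list had a median of 2.84 and a range of 1.91 to 21.3. A fold enrichment of 6 or more was reached by 1222 of them (13.0%), where 20.4% of all distal regions in the KCl list of H3K27ac reached it. The −log10 q was under 2 at 858 members, the lowest value in the list being 1.31. Regions that moved the opposite way were more numerous, at 13204, with a median H3K27ac fold enrichment of 2.79 in the untreated list. The H3K27ac list is also the shorter with KCl, at 57370 regions against 64770 untreated, and with equal list lengths 10443 regions were KCl-only.

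KCl-only regions were of 2 kinds. In 1777 of them (18.9%) the KCl region of H3K27ac also reached an untreated H3K27ac region, so acetylation already present nearby covered the H3K4me1 region only with KCl. They are called extension regions. In the other 7647 (81.1%), called isolated regions, the KCl region of H3K27ac overlapped no untreated one. Extension regions had a median H3K27ac fold enrichment of 8.78 and width of 2473 bp, and 1198 of them reached a fold enrichment of 6. Isolated regions had 2.70 and 428 bp, and 24 reached 6. Strong acetylation of KCl-only regions was therefore nearly all in extension regions. The H3K27ac summit lay inside the H3K4me1 region in 5.91% of extension and 81.8% of isolated regions, so at extension regions the fold enrichment was that of a neighbouring summit.

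**Figure D1:**
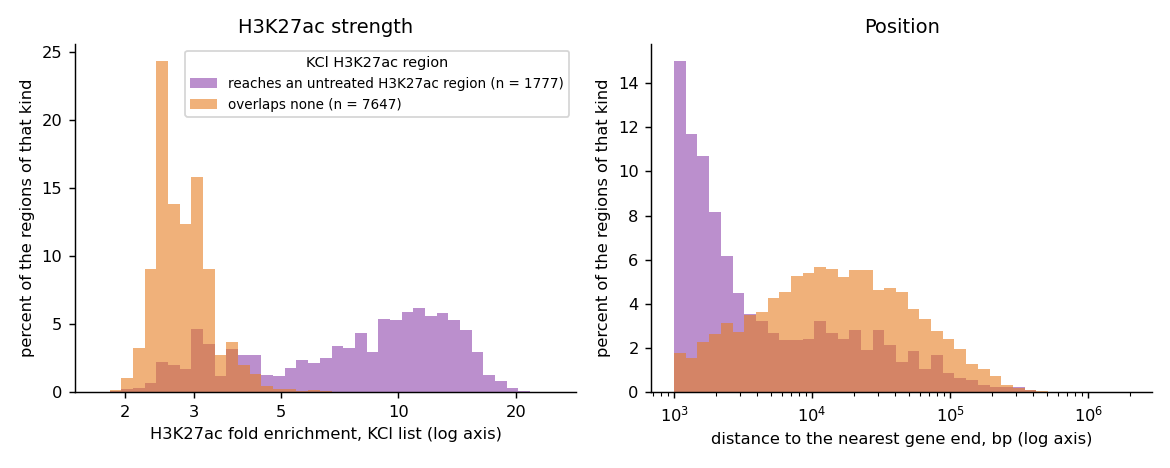
H3K27ac fold enrichment in the KCl list (left, log axis) and distance to the nearest gene end in bp (right, log axis) of the 1777 extension regions (purple) and the 7647 isolated regions (orange), as percent of the regions of each kind per bin. Extension regions centre on a fold enrichment of 8.78 close to gene ends, and isolated regions on 2.70 farther away.

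The H3K27ac regions behind the extension regions are described here without a test, since the H3K27ac lists chose them. The 1678 KCl regions of H3K27ac concerned had a median fold enrichment of 8.64 with KCl and 5.97 at the strongest untreated region they reached, and 1426 of them (85.0%) were higher with KCl. Their median width was 2396 bp with KCl and 1358 bp untreated. Over all 39077 KCl regions of H3K27ac that overlapped an untreated one, the medians were 3.78 with KCl and 4.06 untreated, and 1103 bp and 1203 bp. Both width and fold enrichment come from the KCl calls that made these regions members, so neither is independent of the choice. In the opposite direction, 1229 untreated-only regions (9.31%) belonged to an untreated domain that reached a KCl one, with a median fold enrichment of 3.94.

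Extension regions lay close to promoters. Their median distance to a gene end was 2.47 kb, against 14.2 kb for isolated regions. Within 5 kb of a RefSeq transcription start lay 57.1% of extension regions (54.7 to 59.5), against 12.1% of isolated, 16.8% of both-list, 5.85% of untreated-only and 10.6% of neither-list regions. Of the extension regions within 5 kb, 81.3% were downstream of the start, against 55.5% of the isolated ones. KCl-only regions made up 11.2% of distal regions at 1 to 2 kb from a gene end and 4.42% beyond 50 kb, whereas untreated-only regions made up 5.05% and 11.2%. Inside a gene lay 70.9% of KCl-only, 67.4% of both-list, 60.1% of untreated-only and 64.8% of neither-list regions. By chromosome the share of KCl-only regions ranged from 5.21% on chromosome 14 to 6.82% on chromosome 13. Just inside the 1 kb limit were regions at Smchd1 (1002 bp) and Vps26a (1003 bp). A region 1045 bp from Pdxp lay 1001 bp from another gene end. Just outside the limit were regions at Cog3 and F3 (1000 bp), and 4105 H3K4me1 regions with the same H3K27ac pattern were left out for lying within 1 kb.

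The 10 members with the highest H3K27ac fold enrichment in the KCl list were all extension regions, and none held the H3K27ac summit. They belonged to 6 acetylated domains. A domain in Srsf5, a splicing factor gene, had a fold enrichment of 21.3 and held 2 members. The member at chromosome 12, 80946584 to 80946926, carried Gtf3c1 at 13.3 with KCl, with the summit outside it, and none untreated. A domain in Epc1, a gene of the NuA4 acetyltransferase complex, had 19.7 and held 2 members. A domain in Chaserr, a long noncoding RNA gene next to the chromatin remodeller gene Chd2, had 19.3 and held 3. The remaining 3 members were in Kmt5b, a histone H4 methyltransferase gene, in Rtn3, a reticulon gene of the endoplasmic reticulum, and beside Gpr4, a proton-sensing receptor gene, each at 18.5. All 10 carried Gtf3c1 in the KCl list, at 3.25 to 13.3, and 7 carried it in the untreated list, at 3.22 to 3.94. Of all extension regions 29.7% carried it with KCl and 19.8% untreated, and of all distal regions 13.7% and 19.8%. Members of 1 domain are not separate observations.

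Only 24 isolated regions reached an H3K27ac fold enrichment of 6, and those named here were picked after their values were seen. The strongest was in Rbms2, an RNA-binding protein gene (chromosome 10, 128175473 to 128176233). It had 11.9 for H3K27ac and 6.88 for Gtf3c1 in the KCl lists, both with the summit outside the member, and neither in the untreated lists. Next came Egr2, an immediate-early zinc finger gene (chromosome 10, 67538084 to 67539670), with 9.59 for H3K27ac and 5.92 for Gtf3c1 in the KCl lists and neither untreated. There the summits of both lay inside the H3K4me1 region, and H3K4me1 was 10.4 with KCl and 10.2 untreated. Other such regions were in Sv2c, a synaptic vesicle protein gene (7.56), and in Btg1, an antiproliferative gene, where 1 H3K27ac region of 6.08 covered 2 members. The Egr2 region thus held strong H3K4me1 in both conditions, and H3K27ac and Gtf3c1 in the KCl lists alone. The rule fixed the absence of untreated H3K27ac. Another member, 46139 bp from Egr2, had Gtf3c1 in the untreated list alone, at 5.01. The remaining member near Egr2, 41293 bp away, had it in neither list.

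Immediate-early genes had more KCl-only regions around them than the genome at large. Of the 375 distal H3K4me1 regions within 50 kb of the 35 genes on this list, 67 were KCl-only (17.9%, 14.1 to 22.1), against 5.97% of all distal regions. Untreated-only regions were 14 of the 375 (3.73%, 2.06 to 6.18), against 8.37% of all. The 67 regions touched 57 H3K27ac regions, and 27 were extension regions. Isolated regions alone were 40 of the 375 (10.7%), against 4.85% of all distal regions, and at more than 5 kb from a gene end KCl-only regions were 30 of 184 (16.3%), against 5.34%. A high KCl-only share was not particular to this list. Neural progenitor genes had 16.5% KCl-only and 2.20% untreated-only regions, and astrocyte genes 14.2% and 7.55%. All KCl-only regions near those genes were isolated, so their isolated shares were above the 10.7% here. All pairs of a protein-coding gene and a distal region within 50 kb gave 7.39% KCl-only. The immediate-early list was chosen with earlier results of these data known, and it has no test here.

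Of the 35 immediate-early genes, 23 (65.7%) had a KCl-only region within 50 kb, against 39.9% of 20661 protein-coding genes. This share by gene did not set them apart. It was 71.4% for synaptic, 72.7% for neural progenitor and 81.8% for calcium and CREB signalling genes. The other lists were lower, down to 11.1% for endothelial genes. The widest of the H3K27ac regions at members near immediate-early genes lay at Nr4a1, which encodes an inducible nuclear receptor. A single H3K27ac region of 32072 bp (chromosome 15, 101239003 to 101271074, fold enrichment 12.2) in the KCl list ran over most of the gene (101253902 to 101274795) and upstream of it and held 6 members. At the last of these (101270588 to 101271796) Gtf3c1 was 11.7 with KCl and 3.76 untreated. That KCl region of Gtf3c1 was 10633 bp wide with its summit outside the member, and the untreated one was 384 bp wide. The same 6 members lie within 50 kb of Grasp, a gene of the delayed list that encodes a glutamate receptor-binding scaffold, so both genes count the same acetylation.

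Around Fos, which encodes an AP-1 subunit, 2 members at 85461793 to 85462052 and 85464540 to 85465022 on chromosome 12 shared an H3K27ac domain with a fold enrichment of 12.02 with KCl. A further, isolated one (85491879 to 85492693) had 3.92 for H3K27ac with KCl, while Gtf3c1 there was in the untreated list alone, at 5.19. Near Junb, another AP-1 gene, a member lay 4215 bp away at chromosome 8, 84972259 to 84972694. It had 12.97 for H3K27ac and 13.5 for Gtf3c1 with KCl and neither untreated. Both summits lay outside the member, and the Gtf3c1 region was 3849 bp wide. H3K4me1 at the member was 16.3 with KCl and 3.23 untreated. In Fosl2, which encodes the AP-1 subunit Fra-2, 2 members shared a domain of 13.99. They also shared 1 Gtf3c1 region of 4.34 with KCl, with its summit in neither member, and had no Gtf3c1 untreated. At these AP-1 genes the strong values all came from domains that reached past an untreated H3K27ac region.

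Btg2, an antiproliferative gene, had 5 members nearby, with H3K27ac with KCl from 2.90 to 13.5. Per1, a circadian clock gene induced through CREB, had 6 nearby, from 2.70 to 11.8. The 11.8 was at a member in Aloxe3, 17310 bp from Per1, and the member inside Per1 had 2.70. Near Arc, which encodes a synaptic protein that moves glutamate receptors, there were 4, from 3.38 to 9.32, none with Gtf3c1 in either list. Nr4a3, a relative of Nr4a1, had 5 members, all isolated and weak in H3K27ac (2.30 to 2.97). Gtf3c1 in Nr4a3 was 7.18 with KCl and 3.58 untreated at 48063618 to 48065475 on chromosome 4, and 6.46 and 3.76 at 48057625 to 48059983. These KCl regions of Gtf3c1 were 5006 and 5413 bp wide, and the summit of 6.46 lay outside its member. Sik1, a kinase gene that feeds back on CREB, had an H3K27ac fold enrichment of 12.03 with KCl at its extension region, with Gtf3c1 at 3.59 with KCl and none untreated. No member lay within 50 kb of Egr1, Egr3, Npas4, Jun, Srf, Crem, Atf3, Maff, Klf10, Dusp5, Gadd45g or Ccn1.

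**Figure D2:**
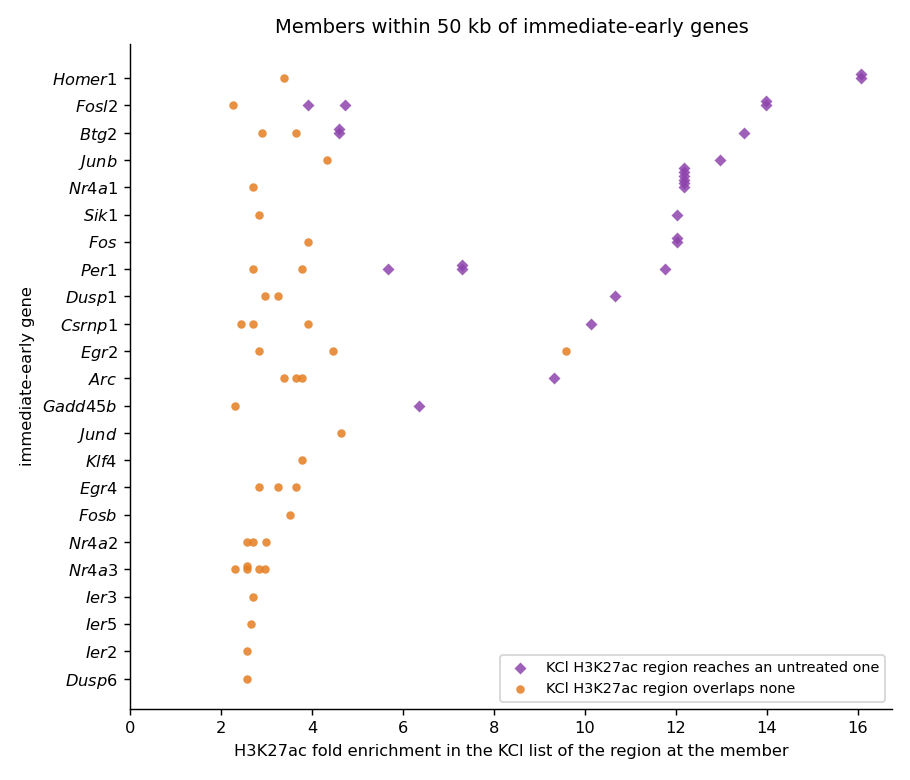
H3K27ac fold enrichment in the KCl list (horizontal axis) of the KCl-only regions within 50 kb of the 23 immediate-early genes that had one, with extension regions as purple diamonds and isolated regions as orange circles. Points at the same value and gene are moved apart vertically so that each shows, and apart from Egr2 at 9.59 the points above 6 are extension regions.

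Gtf3c1 was listed at 18 of the 67 members near immediate-early genes with KCl (26.9%, 16.8 to 39.1) and at 11 untreated (16.4%, 8.49 to 27.5). Of all KCl-only regions 20.6% carried it with KCl and 22.4% untreated, and both values lie within these intervals. At delayed activity-regulated genes, which follow the immediate-early ones, 32 of 233 distal regions were KCl-only (13.7%, 9.59 to 18.8) and 8 untreated-only (3.43%). Of these 24 genes 15 had a member. In Tiparp, which encodes an ADP-ribosyltransferase, one member had 12.7 for H3K27ac with KCl and Gtf3c1 at 3.77 with KCl and 3.76 untreated. In Scg2, which encodes a neuropeptide precursor, H3K27ac was 6.44 with KCl, and Gtf3c1 was 8.05 with KCl and 6.89 untreated. Neither KCl summit lay inside that member. Bdnf, the neurotrophin gene, had 1 member 43628 bp away, at 3.48 for H3K27ac. Of the 32 regions, 6 carried Gtf3c1 with KCl (18.8%, 7.21 to 36.4) and 7 untreated (21.9%), near the shares of all KCl-only regions.

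Genes of calcium and CREB signalling had a KCl-only region within 50 kb in 27 of 33 cases (81.8%), against 39.9% of all protein-coding genes. By region the share was near the background, as 73 of 940 distal regions were KCl-only (7.77%, 6.14 to 9.67). All pairs of a protein-coding gene and a distal region within 50 kb gave 7.39%, and all distal regions 5.97%. Prkca, a calcium-activated kinase gene, had 10 members among 107 distal regions, and Mef2d, an activity-regulated transcription factor gene, 5 among 14. Synaptic genes gave 92 of 1459 (6.31%), with 22 at Dlg2, which encodes the scaffold PSD-93, and 6 of the 10 distal regions at Vamp2, which encodes a vesicle fusion protein. The 6 at Vamp2 are those already given for Per1, its neighbour on chromosome 11. Glutamatergic neuron genes gave 31 of 423 (7.33%). GABAergic neuron genes gave 11 of 151 (7.28%) and housekeeping genes 10 of 81 (12.3%, 6.08 to 21.5).

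Marker genes of other cell types were examined in the same way. Neural progenitor genes had 15 of 91 distal regions KCl-only (16.5%, 9.53 to 25.7), with 4 at Notch1, and all 15 were isolated. Astrocyte genes had 15 of 106 (14.2%, 8.14 to 22.3), all isolated, with 6 at Slc1a2 and 3 at Slc1a3, which encode glutamate transporters, and 4 at the growth factor receptor gene Fgfr3. Microglia genes had 10 of 94 (10.6%, 5.22 to 18.7). Oligodendrocyte lineage genes had 8 of 95 (8.42%), 4 of them at Mbp, endothelial genes 6 of 81 (7.41%), all at Pecam1, and non-neural genes 2 of 54 (3.70%). The median H3K27ac fold enrichment of the progenitor members was 2.84 and of the astrocyte members 2.70, near the median of all KCl-only regions.

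**Figure D3:**
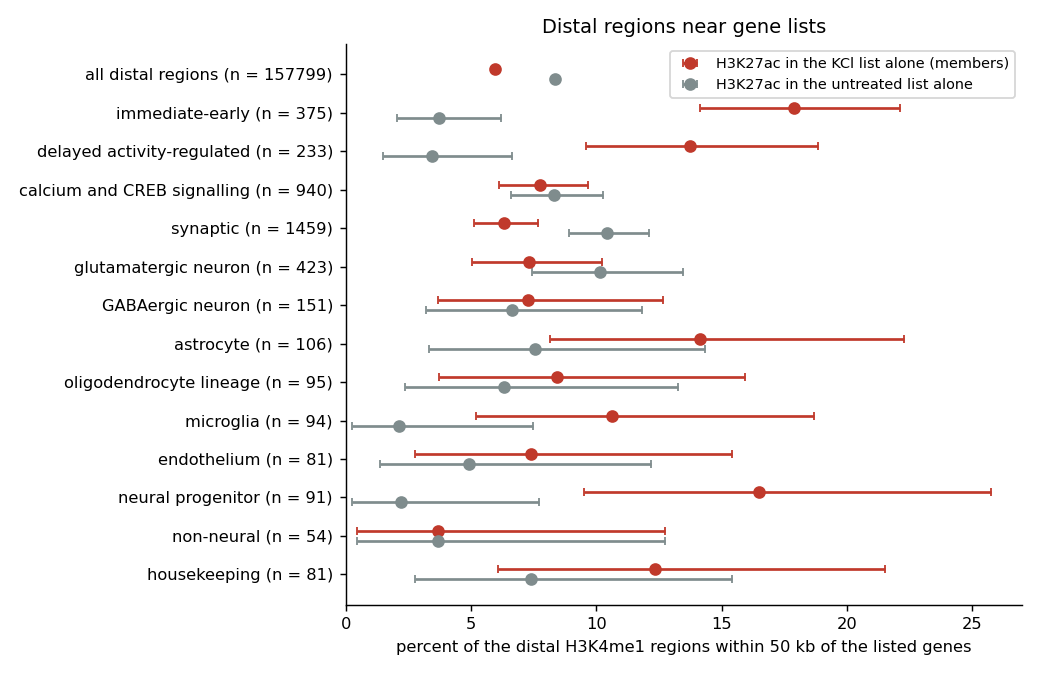
Percent of the distal H3K4me1 regions within 50 kb of each list's genes (n regions in brackets) that were KCl-only (red) or untreated-only (grey), with exact binomial 95% intervals that cover counting error only. Immediate-early genes stand at 17.9% KCl-only and 3.73% untreated-only, where all distal regions stand at 5.97% and 8.37%.

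H3K27ac within 1 kb of a gene end checked the labelled cell type. It was present with KCl at 14 of 14 glutamatergic, 14 of 15 GABAergic, 7 of 11 astrocyte and 9 of 11 progenitor genes, and untreated at 14, 11, 8 and 6. It was present at 2 of 10 oligodendrocyte lineage genes with KCl and at 1 untreated, and at 1 of 11 microglia, 1 of 9 endothelial and 3 of 14 non-neural genes in both conditions. Astrocyte and progenitor genes were therefore marked in these cultures beside neuronal ones. The part of cells other than neurons in the KCl-only regions was not tested, and more cells of a type cannot be told apart from more signal per cell.

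The next question was whether TFIIIC sat on the regions that became acetylated. Gtf3c1 was listed at 1939 KCl-only regions with KCl (20.6%, 19.8 to 21.4) and at 2112 untreated (22.4%, 21.6 to 23.3). All distal regions stood at 13.7% with KCl and 19.8% untreated. Both-list regions had the highest shares and neither-list regions the lowest in either condition. The number of KCl-only regions with Gtf3c1 was nearly the same in both lists, with a ratio of KCl to untreated counts of 0.918, against 0.798 at both-list, 0.521 at untreated-only and 0.575 at neither-list regions, and 0.694 over all. The untreated list of Gtf3c1 is the longer, with 66174 regions against 57653 with KCl. With both lists cut to the same length the shares of KCl-only regions were 20.6% with KCl and 19.6% untreated, so their order turned, against 13.7% and 18.1% for all distal regions. It also turned for the 3161 KCl-only regions whose H3K27ac reached a q of 1e-05, with Gtf3c1 at 28.7% with KCl and 23.6% untreated.

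**Figure D4:**
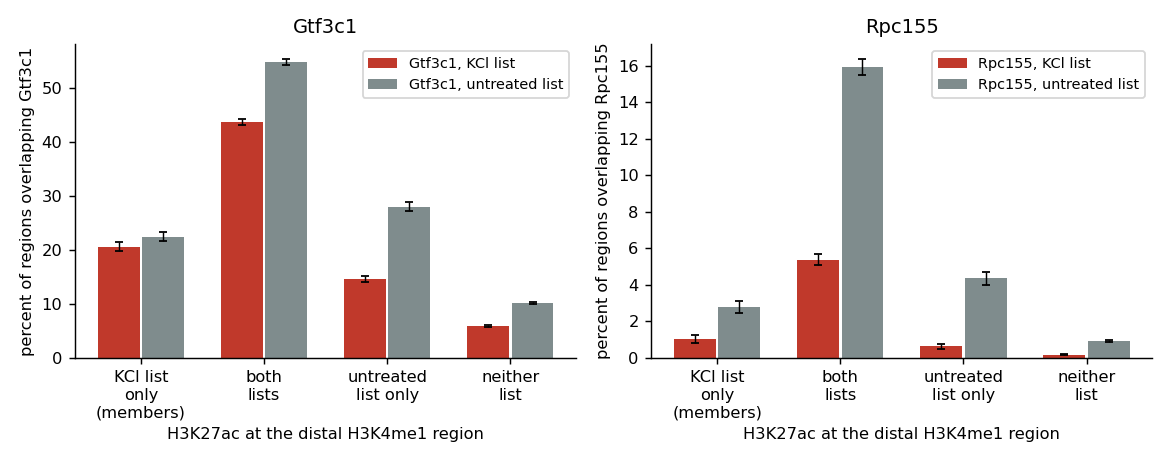
Percent of distal H3K4me1 regions that overlapped a Gtf3c1 (left) or Rpc155 (right) region of the KCl list (red) or the untreated list (grey), by the H3K27ac pattern of the region, with exact binomial 95% intervals for counting error. For KCl-only regions the Gtf3c1 bars reach 20.6% (KCl) and 22.4% (untreated), and the Rpc155 bars 1.02% (KCl) and 2.77% (untreated).

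The near-equal totals were made up of partly different regions. Most of these calls were weak, with a median fold enrichment of 3.59 with KCl and 3.58 untreated. With 1 list per condition, gain or loss of Gtf3c1 cannot be told apart from weak peaks crossing the calling limit. Gtf3c1 was in the KCl list alone at 933 KCl-only regions (9.90%; 4.44% of all distal regions) and in the untreated list alone at 1106 (11.7%; 10.5% of all). It was in both at 1006 (10.7%; 9.30% of all) and in neither at 6379 (67.7%; 75.8% of all). Of the 2112 KCl-only regions with Gtf3c1 untreated, 47.6% (45.5 to 49.8) also had it with KCl, close to the 47.0% of all distal regions. Among KCl-only regions without Gtf3c1 in the untreated list, 12.8% (12.003 to 13.5) had it with KCl, against 19.5% at both-list, 6.08% at untreated-only and 3.25% at neither-list regions. Where both lists had it, the median fold enrichment was 3.95 with KCl and 3.94 untreated, and it was higher with KCl in 530 of 1006. The median log2 difference was 0.00 at KCl-only regions, −0.10 at both-list, −0.27 at untreated-only and −0.23 at neither-list regions. At least 2 times higher with KCl were 24 (2.39%), where 2.04% of all distal regions with Gtf3c1 in both lists were, a share near the background.

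The Gtf3c1 difference between conditions ran in opposite directions in the 2 kinds of KCl-only regions. At extension regions Gtf3c1 was listed at 29.7% with KCl (27.5 to 31.8) and 19.8% untreated (17.9 to 21.7), and at isolated regions at 18.5% (17.6 to 19.4) and 23.0% (22.1 to 24.0). This also held with equal list lengths, at 29.7% and 16.9% for extension and 18.5% and 20.2% for isolated regions. Over all distal regions the shares were 13.7% with KCl and 19.8% untreated, and 13.7% and 18.1% with equal list lengths. The lower KCl share at isolated regions was thus also the direction of all distal regions. The ratio of KCl to untreated counts was 1.50 at extension regions, 0.802 at isolated regions and 0.694 over all distal regions. In 4 bins of H3K27ac fold enrichment, cut at its quartiles, Gtf3c1 was at 15.4%, 17.4%, 17.99% and 32.1% of members with KCl, from low to high, and at 19.8%, 23.0%, 24.4% and 23.4% untreated. The highest bin, of which 63.9% were extension regions, stood apart with KCl and not without. In both-list regions the KCl shares climbed over all 4 bins, 25.2%, 34.1%, 49.3% and 67.7%, beside 41.8%, 52.0%, 62.7% and 63.8% untreated.

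**Figure D5:**
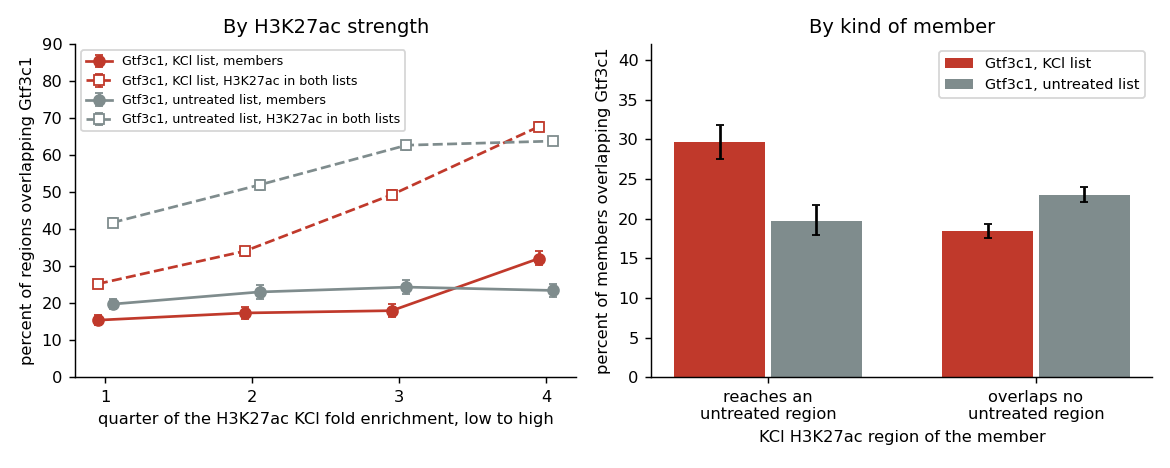
Left, percent of KCl-only regions (filled, solid) and both-list regions (open, dashed) that overlapped Gtf3c1 in the KCl list (red) or the untreated list (grey), by bin of H3K27ac fold enrichment in the KCl list, cut at the quartiles, low to high. Right, the same percent in extension regions (29.7% KCl, 19.8% untreated) and isolated regions (18.5% and 23.0%), with exact binomial 95% intervals for counting error.

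Part of the overlap was with Gtf3c1 regions centred elsewhere. The Gtf3c1 summit lay inside 1546 KCl-only regions with KCl (16.4%, 15.7 to 17.2) and inside 1837 untreated (19.5%), against 10.9% with KCl and 16.4% untreated for all distal regions. In extension regions the shares with the summit inside were 18.97% (17.2 to 20.9) and 15.1% (13.5 to 16.9), so the order held there, by a smaller margin. In isolated regions they were 15.8% and 20.5%. At the 2862 isolated regions with no untreated H3K27ac region within 10 kb, Gtf3c1 was at 17.9% (16.5 to 19.4) with KCl and 26.6% (25.0 to 28.3) untreated. Among the 274 isolated regions with an H3K27ac fold enrichment of 4 or more, a threshold set after the values were seen, Gtf3c1 was at 39.8% (33.9 to 45.8) with KCl and 30.3% untreated.

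Width also moved with Gtf3c1. Of 4 bins of H3K4me1 width, cut at the quartiles of all distal regions, the widest lay above 1085 bp. In it Gtf3c1 was at 30.8% of KCl-only regions with KCl, against 51.3% of both-list, 23.9% of untreated-only and 15.9% of neither-list regions. Untreated, the shares were 37.8%, 65.8%, 46.7% and 30.4%. In the narrowest bin, up to 317 bp, the KCl shares were 9.02%, 24.5%, 5.85% and 2.78% in the same order of classes, and KCl-only regions had 6.10% untreated. Within each of the 4 bins KCl-only regions thus stood between both-list and untreated-only regions with KCl.

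Strong Gtf3c1 was uncommon. A fold enrichment of 6 or more was reached at 203 KCl-only regions with KCl (2.15%; 2.13% of all distal regions) and at 248 untreated (2.63%; 3.78% of all). Of the 21683 distal regions with Gtf3c1 in the KCl list, 7006 had none in the untreated list. Among the 10 members with the highest Gtf3c1 fold enrichment in the KCl list, 3 had no Gtf3c1 in the untreated list. They were at Rab6b, a neuronal Rab GTPase gene (chromosome 9, 103108098 to 103108500, 46.1 with KCl), in Siah2, a ubiquitin ligase gene (chromosome 3, 58688338 to 58690042, 36.6), and in Grk5, a gene for a kinase of G protein-coupled receptors (chromosome 19, 60891320 to 60892261, 23.0). All 3 were extension regions, 3167, 2397 and 1760 bp from the nearest end of a gene that is not a predicted model. They had H3K27ac of 11.3, 12.8 and 10.3 and a Gtf3c1 summit beside the H3K4me1 region. Paip1, a translation regulator gene, was of the same kind, at 33.5 with KCl and 2.86 untreated.

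The other 6 were isolated regions with weak H3K27ac, from 2.30 to 4.59, and Gtf3c1 in both lists. In Arap1, which encodes a GTPase-activating protein (chromosome 7, 101373458 to 101374546), Gtf3c1 was 38.7 with KCl and 23.1 untreated. In Six3, a forebrain homeobox gene (chromosome 17, 85620152 to 85622075), it was 27.3 and 14.9, and in Adamts6, a metalloprotease gene, 26.7 and 6.89. Near Far1, a fatty acid reductase gene, it was 23.7 and 18.4. In Ppp2r2b, a phosphatase 2A subunit gene, it was lower with KCl, at 32.5 against 36.5, and the KCl summit lay outside the member. The last had 21.7 and 18.5. Its nearest gene was Pik3c3, 1412100 bp away, counting only protein-coding, long noncoding RNA and microRNA genes that are not predicted models. Other RefSeq gene ends lay closer. Of these 10, the extension regions had Gtf3c1 unlisted or weak at the member in the untreated list, with the KCl summit outside the member. Untreated Gtf3c1 at those summits was not looked up. The other 6 had a Gtf3c1 fold enrichment of 6.89 or more in both lists. All 10 were picked on the KCl value, so a higher value with KCl is partly built in.

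RNA polymerase III was at few KCl-only regions. Rpc155 was listed at 96 with KCl (1.02%, 0.826 to 1.24; 1.12% of all distal regions) and at 261 untreated (2.77%, 2.45 to 3.12; 3.80% of all). It was in the KCl list alone at 66 (0.700%; 0.497% of all), in the untreated list alone at 231 (2.45%; 3.17% of all) and in both at 30. The KCl list of Rpc155 is much the shorter, with 4233 regions against 12511 untreated. At extension regions it was 1.24% with KCl and 1.91% untreated, and at isolated regions 0.968% and 2.97%. With equal list lengths the shares were 1.02% with KCl and 0.902% untreated at KCl-only regions, and 1.12% and 1.37% over all distal regions.

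A fold enrichment of 6 or more for Rpc155 with KCl was found at 13 KCl-only regions (0.138%; 0.109% of all distal regions). Of all 96 KCl-only regions with Rpc155 in the KCl list, 63 carried Gtf3c1 with KCl (65.6%), against 1512 of 1769 distal regions. All 13 strong ones were isolated, and all carried Gtf3c1 in both lists. Its median was 19.7 with KCl and 10.6 untreated, and it was higher with KCl in 10. The 13 were picked on a KCl value, so this direction carries no test. Rpc155 was in the untreated list at 12 of them. The strongest were in Arap1 (22.9 with KCl, 20.0 untreated), in Six3 (12.3 and 5.94) and near Far1 (12.3 and 10.9), all named above for Gtf3c1. Adamts6 was the exception, with Rpc155 at 9.99 with KCl and none untreated. The rule kept more than 1 kb from every RefSeq gene end, tRNA genes included.

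The 10 genes with the most KCl-only regions within 50 kb are given with the share of their distal regions that these made up, to be read against 5.97% of all distal regions. For Gtf3c1 the shares were 20.6% of all KCl-only regions with KCl and 22.4% untreated, and 13.7% and 19.8% of all distal regions. Gtf3c1 regions at members were up to 14083 bp wide with KCl, so 1 region can count at several members. Celf2, a splicing regulator gene, had 43 within 50 kb, or 14.6% of its 294 distal regions, and 37 of the 43 carried Gtf3c1 with KCl and 26 untreated. Tcf4, a neurodevelopmental transcription factor gene, had 20 (16.1% of 124), with Gtf3c1 at 13 with KCl and at 3 untreated. Dab1, the Reelin adaptor gene, had 22 (7.94% of 277), with Gtf3c1 at 10 with KCl and at 2 untreated. Ank3, which encodes ankyrin-G of the axon initial segment, had 20 (14.5% of 138), with Gtf3c1 at 14 with KCl and at 8 untreated. Septin9, a cytoskeletal GTPase gene, had 19, which was 46.3% of its 41 distal regions, and none of them carried Gtf3c1 in either list. Arpp21, a cyclic AMP-regulated phosphoprotein gene, had 23 (33.3% of 69), with Gtf3c1 at 16 with KCl and at 18 untreated. The remaining 4 of the 10 genes with the most members were Dlg2 with 22 (7.86% of 280), Plxna2, a semaphorin receptor gene, with 18 (26.5% of 68), Pde4d, a cyclic AMP phosphodiesterase gene, with 16 (11.1% of 144), and Tenm2, a teneurin adhesion gene, with 16 (4.98% of 321). Tenm2 was thus below the share of all distal regions, and Dlg2 and Dab1 were little above it. The 10 genes ranged from 163 kb (Septin9) to 1973 kb (Dlg2) in length.

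The median gap between neighbouring KCl-only regions was 88.0 kb, and 1488 neighbouring pairs (15.8%) were 10 kb or less apart. At 558 members the strongest H3K27ac region touched at least 1 further member, up to 6 at the Nr4a1 domain. The median distance from the H3K4me1 summit to the H3K27ac summit was 276 bp, against 397 bp at both-list regions, and the H3K27ac region spanned the H3K4me1 summit at 58.8% of KCl-only regions. From the H3K27ac summit to the Gtf3c1 summit with KCl the median was 444 bp, against 460 bp at both-list regions.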

How the data were processed

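Reads of the ChIP-seq libraries went through Bowtie2 and MACS2 with GRCm38/mm10 as the build, per the submitters' processing notes. The series design states biological replicates for each condition and a total chromatin input; the sources used here do not say how replicates were combined. The deposited lists give for each region a position, a summit, a fold enrichment (the ratio of the summit to local background), a −log10 p and −log10 q, and a score that equals 10 times the −log10 q, rounded down, in the authors' files. Read depth is unknown.

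Regions on chromosomes 1 to 19 were overlapped (at least 1 bp) in Python 3.11.15 with pandas 2.3.3, and where several regions overlapped, the highest fold enrichment was taken. Gene ends, names and promoter windows came from RefSeq (GRCm38.p6). Shares carry Clopper-Pearson 95% intervals (scipy 1.17.1), which cover counting error only, and neighbouring regions are not independent. Overlap functions were tested on simulated regions. Named regions were the 10 highest in H3K27ac and in Gtf3c1 of the KCl lists, those within 50 kb of activity-regulated genes, and the 10 genes with most members. The members, gene lists and naming rules were chosen with earlier results of these data known. Equal list lengths means that the longer list was cut to the length of the shorter by q. No genome was used, so the sequences of the distal regions were not searched for motifs.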

Additional observations from a re-analysis of the deposited data

How the results depend on the processing

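The number of KCl-only regions fell to 3161 when their H3K27ac had to reach a q of 1e-05, and lay between 6342 and 10443 under the other settings tried. With that q for H3K27ac, H3K4me1 was listed with KCl at 93.9%, Gtf3c1 at 28.7% with KCl and 23.6% untreated, and Rpc155 at 1.645% with KCl and 3.48% untreated, so the order of the Gtf3c1 shares turned. When the H3K27ac overlap had to cover 50% of the shorter of both regions, H3K4me1 was at 92.9% and untreated Gtf3c1 at 23.8%. More than 5 kb from a gene end, H3K4me1 was at 91.1% and Gtf3c1 with KCl at 17.82%. With no untreated H3K27ac within 1 kb, H3K4me1 was at 93.0%, Gtf3c1 at 18.7% with KCl and 23.7% untreated, and untreated Rpc155 at 3.33%. With H3K4me1 regions at a q of 1e-05, H3K4me1 was at 96.7%, Gtf3c1 at 22.6% with KCl and 25.7% untreated, and untreated Rpc155 at 3.27%. The next 2 settings were chosen after seeing the data. In isolated regions alone, Gtf3c1 with KCl was at 18.5%. With the H3K27ac summit inside the region, H3K4me1 was at 94.7%, Gtf3c1 at 19.4% with KCl and 25.5% untreated, and untreated Rpc155 at 3.40%. When the overlapping lists themselves had to reach a q of 1e-05, H3K4me1 was at 84.5%, Gtf3c1 at 9.50% with KCl and 10.8% untreated, and Rpc155 at 0.393% with KCl and 0.711% untreated. With equal list lengths, untreated Gtf3c1 was at 19.6% and untreated Rpc155 at 0.902%, which turned the order for both. When a listed region had to share 50% of the shorter of both regions, H3K4me1 was at 89.8%, Gtf3c1 at 17.77% with KCl and 20.1% untreated, and Rpc155 at 0.796% with KCl and 2.30% untreated. In the 4 bins of H3K4me1 width, narrow to wide, H3K4me1 was at 65.3%, 86.3%, 96.8% and 99.9%. Gtf3c1 was at 9.02%, 12.8%, 17.1% and 30.8% with KCl and at 6.10%, 9.95%, 17.1% and 37.8% untreated, so the KCl share was the higher in the narrower 2 bins. Rpc155 was at 0.501%, 0.959%, 0.651% and 1.51% with KCl and at 0.585%, 1.20%, 1.95% and 4.86% untreated. The cause of these differences was not tested. The counts of immediate-early and delayed genes with a KCl-only region stayed within 1.5 times under the settings tried.

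No paired analysis was possible because each antibody and condition had 1 list. There was thus no replicate to leave out. The motif alternatives for the distal regions were not run without a genome. Absence from a list says only that no region passed the authors' limit, and 858 of the KCl-only regions had a −log10 q for H3K27ac under 2. Depth is unknown, and the lists of the 2 conditions differ in length for Gtf3c1, Rpc155 and H3K27ac.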
